A study of Mus musculus with 12 samples.

Results

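The genes described here encode the nuclear subunits of oxidative phosphorylation. They were chosen by gene symbol, as those beginning with Nduf followed by a, b, c, s or v and a digit, with Uqcr, with Cox and a digit from 4 to 8, or with Atp5, together with Sdha, Sdhb, Sdhc, Cyc1 and Cycs. The rule found 86 of the 22923 gene symbols in the files. Of these, 35 belong to complex I, 3 to complex II, 9 to complex III, 18 to complex IV and 15 to ATP synthase, and Cycs is cytochrome c. Ndufa4 and its relative Ndufa4l2 were kept apart, because Ndufa4 is named for complex I and is now counted in complex IV. The remaining 3, Cox4nb, Atp5s and Atp5sl, share the start of the symbol but are not counted as subunits here, and they are given apart wherever the complexes are.

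Oxidative phosphorylation makes most of the ATP of muscle at rest and in sustained work. Complexes I and II pass electrons from NADH and succinate to ubiquinone, complex III hands them to cytochrome c, and complex IV gives them to oxygen. Complexes I, III and IV pump protons across the inner mitochondrial membrane, and ATP synthase uses their return to make ATP. Several complex IV subunits, and few of the other complexes, come in a form made in heart and skeletal muscle and another made in most tissues.

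RNA of proximal hind limb skeletal muscle was sequenced from 12 male mice of the FVB strain at 22 weeks of age, 3 in each of 4 groups. The groups were WT and αB-crystallin/HspB2 KO mice, each kept either on normal chow (chow-fed) or on a high fat diet (fat-fed). The WT samples are titled Flox, and the KO lacks both small heat shock protein genes in every tissue, so that the 2 deletions cannot be told apart. Values are FPKM, which scale reads to transcript length and library size, but their sum over all genes was not level. It was 1.07e+07 in replicate 3 of the chow-fed KO mice and between 500034 and 693149 in the other libraries.

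The deletion was read first. Cryab, which encodes αB-crystallin, lay between 411.6 and 837 FPKM in the 6 libraries titled WT and between 0.845 and 1.75 FPKM in the 6 titled KO. Hspb2 lay between 81.5 and 103 FPKM and between 0.353 and 1.92 FPKM. In 6 samples the genotype label goes against the title, and samples were grouped by title. Reads per library are unknown, but relative depth, from the step between low values, ran from 1 to 1.36.

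Libraries stood apart in markers of other cell types and of slow fibres, and the bearing of this on the subunits was not tested. The 5 markers of B and T cells used here were all listed, and their summed level was 54.1 FPKM in replicate 2 of the chow-fed WT mice, and 64.5 and 59.5 FPKM in replicates 1 and 3 of the chow-fed KO mice. It lay between 0.475 and 3.99 FPKM in the other 9 libraries, where Ms4a1 and Cd3e were at 0 in replicate 1 of the chow-fed WT mice, and Cd79a in replicate 2 of the chow-fed KO mice. The brown fat markers Ucp1 and Cidea, both listed, summed to between 46.0 and 57.3 FPKM in the same 3 libraries and to between 0.829 and 13.2 FPKM in the others, with Ucp1 at 0 in 3 of them. The 6 white fat markers, none at 0, summed to between 120.1 and 778 FPKM in chow-fed WT mice, 6.20 and 414 in fat-fed WT mice, 865 and 1864 in chow-fed KO mice, and 401 and 562 in fat-fed KO mice. The lowest of these values was that of replicate 1 of the fat-fed WT mice. In that library the 8 slow fibre genes, none at 0, summed to 201 FPKM, against between 347 and 2758 FPKM in the other 11.

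Muscle itself was clear in every library, with Ckm, muscle creatine kinase, between 13276 and 25896 FPKM. Of the 8 muscle markers, Myh4 was listed at 0 in all 12 libraries and Acta1 in 2, so a listed 0 need not mean no expression. Over the 12 libraries, the summed markers of macrophages lay between 26.5 and 207 FPKM, of endothelium between 69.9 and 96.7, of nerve between 55.7 and 323, of fibroblasts and tendon between 494 and 1093, and of keratinocytes between 0 and 12.8, and the only erythroid marker listed, Alas2, between 2.33 and 17.7. In a bulk sample, fewer fibres of a type and less RNA per fibre cannot be told apart.

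Oxidative phosphorylation genes were among the most abundant transcripts of the muscle. Of the 86, 77 had a mean over the 12 libraries above 100 FPKM and 8 had a mean under 20 FPKM. The median member had a mean of 470 FPKM and stood at percentile 98.7 of the genes tested. In 84 the level reached 1 FPKM in at least 3 libraries, and these were tested among 11945 genes. The other 2 were the testis forms Cox8c, listed at 0 in every library, and Cox7b2, whose highest value was 0.402 FPKM. None of the 13 subunits encoded in mitochondrial DNA is among the genes analysed here.

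ATP synthase held the most abundant member. Atp5b, the catalytic β subunit, had a mean of 2106 FPKM, and Atp5d, the δ subunit, was lowest there with 476 FPKM. In complex IV the range ran from Cox6a2, the muscle form of subunit VIa, at 1910 FPKM down to Cox8c. In complex III it ran from 765 FPKM for Uqcr11 to 356 FPKM for the core protein gene Uqcrc2. Complex I ran from Ndufb8, with 789 FPKM, to Ndufa11, with 47.0 FPKM. Complex II was narrow, from 471 FPKM for the iron-sulphur subunit Sdhb to 325 FPKM for the flavoprotein Sdha. Cycs had a mean of 256 FPKM. The median member varied over the 12 libraries with a coefficient of variation of 20.2% in complex I, 20.1% in complex II, 22.3% in complex III, 22.8% in complex IV and 20.2% in ATP synthase.

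The subunits varied together from library to library. Each member's log2(FPKM + 1) was set against its mean over the 12 libraries, and the median over the 84 members was taken in each library. It was 0.19, -0.10 and -0.07 in replicates 1 to 3 of the chow-fed WT mice, and 0.63, 0.10 and 0.16 in the fat-fed WT mice. It was -0.40, -0.07 and -0.27 in the chow-fed KO mice, and -0.08, -0.03 and -0.04 in the fat-fed KO mice. All 3 WT libraries on high fat diet lay above the 6 KO libraries, as did replicate 1 of the chow-fed WT mice, while the other WT libraries on normal chow lay among the KO libraries. Replicate 1 of the fat-fed WT mice held the highest value of 80 of the 84 members, and replicate 1 of the chow-fed KO mice held the lowest of 69. The median over all genes tested stayed between -0.03 and 0.03 in every library.

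**Figure D1:**
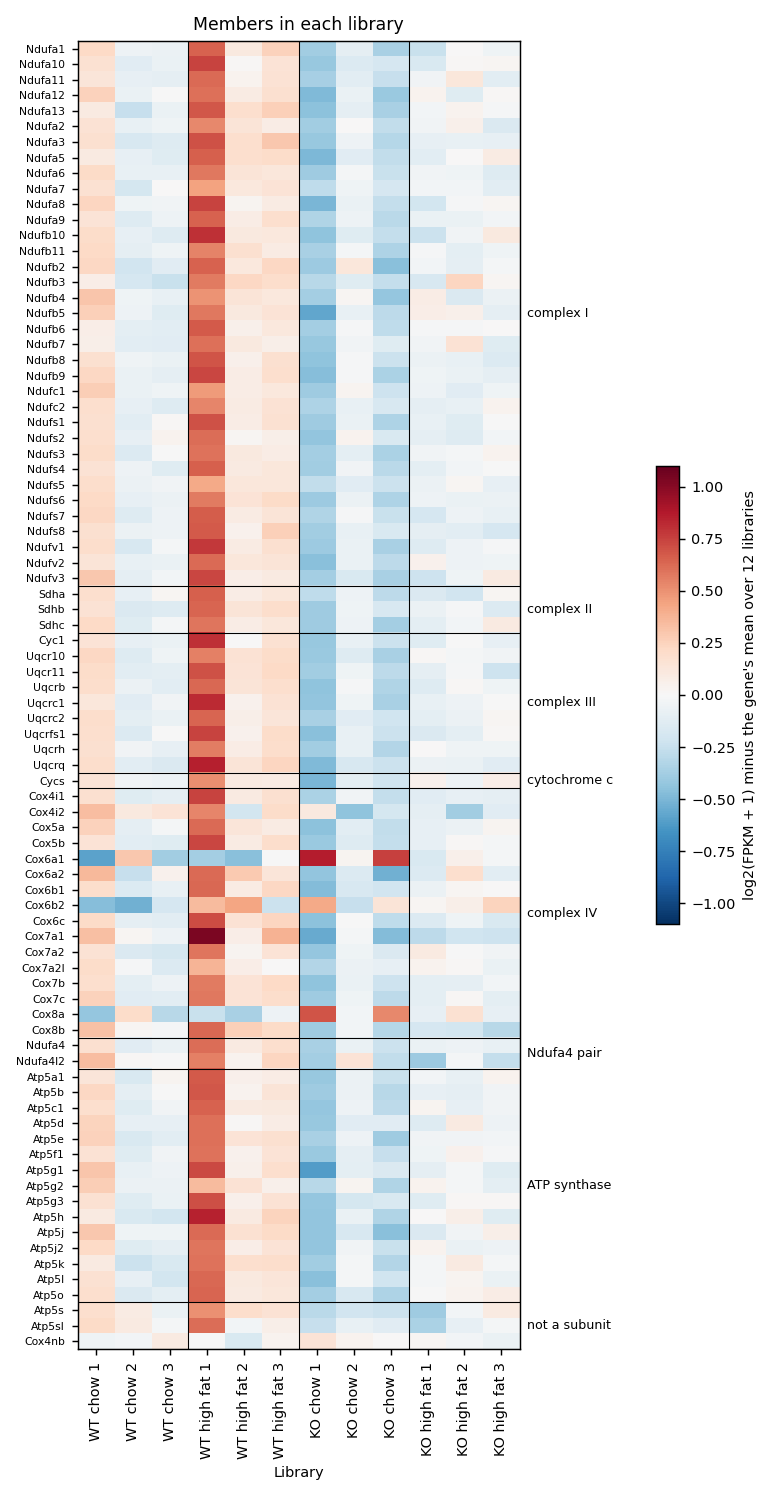
Heat map of the 84 tested members (rows, ordered by complex) in the 12 libraries (columns), where colour gives log2(FPKM + 1) minus the gene's mean over the libraries. Nearly every row is reddest in replicate 1 of the fat-fed WT mice, the highest library of 80 members, and bluest in replicate 1 of the chow-fed KO mice, the lowest of 69, while Cox6a1 and Cox8a run the other way.

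The 5 complexes gave nearly the same picture. In complex I the group mean of this median was 0.01 ± 0.15 (SD, n = 3) in chow-fed WT mice, 0.30 ± 0.30 in fat-fed WT mice, -0.25 ± 0.16 in chow-fed KO mice and -0.05 ± 0.01 in fat-fed KO mice. In ATP synthase the same means were -0.01 ± 0.17, 0.29 ± 0.30, -0.26 ± 0.18 and -0.03 ± 0.01. Summed over the members of a library, the transcripts came to 47165 ± 5869 FPKM in chow-fed WT mice, 58892 ± 12807 in fat-fed WT mice, 39383 ± 4735 in chow-fed KO mice and 44964 ± 803 in fat-fed KO mice. The spread within the WT group on high fat diet was the widest, and the 3 fat-fed KO mice were close together.

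**Figure D2:**
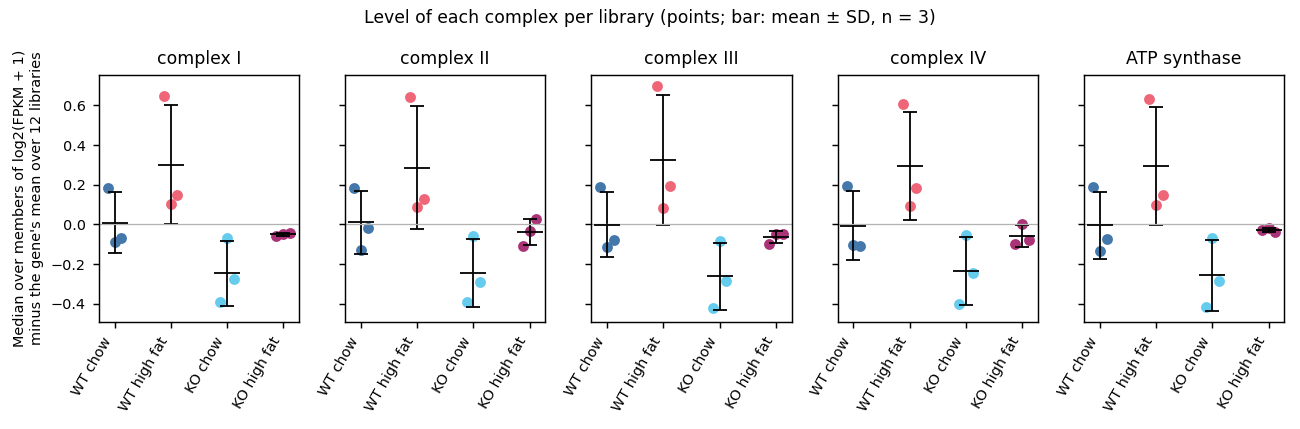
Level of each of the 5 complexes in each library, as the median over its tested members of log2(FPKM + 1) minus the gene's mean over 12 libraries; points are libraries, and bars are the group mean ± SD (n = 3). In each complex the highest point is a fat-fed WT mouse and the lowest a chow-fed KO mouse, as in complex I, where the group means run from 0.30 to -0.25.

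Genotype was compared first over both diets, 6 KO against 6 WT libraries, with limma on log2(FPKM + 1). Of the 84 members, 80 had a lower mean in KO mice, where 55.6% of all genes tested did. The median log2 fold change was -0.30 over the members and -0.02 over all genes tested. By limma no member passed an adjusted p of 0.05, a threshold that 0.862% of all genes passed. At an unadjusted p under 0.05, 72 members were lower and 2 higher in KO mice, against 13.4% and 13.1% of all genes tested. Lower at that level were 32 of 35 members in complex I, 3 of 3 in complex II, 9 of 9 in complex III, 11 of 16 tested in complex IV and 12 of 15 in ATP synthase. Cycs, both of the Ndufa4 pair, and Atp5s and Atp5sl were also among the 72. Of 16 core subunits listed for complexes I, II and III and the F1 part of ATP synthase, 15 were lower at that level. The median log2 fold change of the 16 was also -0.30, with a range from -0.35 to -0.25.

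These counts leaned on single libraries. Without replicate 1 of the fat-fed WT mice the median log2 fold change was -0.21. In that fit 58 members were lower at an unadjusted p under 0.05, against 8.91% of all genes. There were 44 without replicate 1 of the chow-fed WT mice or of the chow-fed KO mice, against 7.72% and 8.98% of all genes. Without replicate 1 of both WT groups the median was -0.17 and 28 members were lower at that level, against 5.25% of all genes. Without the 3 libraries with B and T cell markers the median was -0.24. That fit leaves 1 chow-fed KO library, assumed to vary like the others, so its count is not set beside these. Without replicate 2 of the chow-fed KO mice, 16 members passed an adjusted p of 0.05 by limma, 14 lower and 2 higher. In that fit 10.1% of all genes passed. After quantile normalization the median was -0.16 against -0.05 over all genes. The part of fat and lymphoid RNA in the genotype difference was not tested.

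The member with the smallest p was Cox8b, the muscle form of subunit VIII, at chr7:140898942-140900446 (GRCm38.p6). Its level was 1610, 1306 and 1270 FPKM in chow-fed WT mice and 1997, 1539 and 1489 FPKM in fat-fed WT mice. It was 977, 1258 and 1031 FPKM in chow-fed KO mice and 1128, 1116 and 1040 FPKM in fat-fed KO mice. Every KO library was below every WT library. The log2 fold change over both diets was -0.48 (SE 0.10, limma adjusted p = 0.0563), or 1.39-fold lower in KO mice on the log2(FPKM + 1) scale. After quantile normalization it was -0.25 (adjusted p = 0.0482 by limma), and without the 3 libraries with B and T cell markers it was -0.39 (limma adjusted p = 0.382). Ndufs8, an iron-sulphur subunit of complex I that was singled out after its values were seen, was the only other member whose 6 KO libraries all lay below the 6 WT libraries, with means of 110 and 142 FPKM. Among all genes tested 0.996% were lower in KO mice in this way.

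Cox7a1, the muscle form of subunit VIIa, at chr7:30184171-30186030, showed the largest difference among the members. It measured 1308, 1055 and 996 FPKM in chow-fed WT mice and 2128, 1096 and 1352 FPKM in fat-fed WT mice. In KO mice it measured 707, 1025 and 746 FPKM when chow-fed and 848, 894 and 887 FPKM when fat-fed. Replicate 2 of the chow-fed KO mice lay within the WT range, and the others lay below it. The log2 fold change was -0.60 (SE 0.16, limma adjusted p = 0.0710). Cox8b and Cox7a1 are also made in brown fat, and the part of brown fat RNA in their difference was not tested.

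Cox6a2, the muscle form of subunit VIa, at chr7:128205435-128206366, measured 2382, 1565 and 1930 FPKM in chow-fed WT mice and 2869, 2273 and 2041 FPKM in fat-fed WT mice. In KO mice it measured 1382, 1673 and 1293 FPKM when chow-fed and 1674, 2115 and 1719 FPKM when fat-fed. The WT and KO ranges overlapped on each diet, with a log2 fold change of -0.40 (SE 0.13, limma adjusted p = 0.0988). Atp5j, which encodes coupling factor 6 in the stalk of ATP synthase, measured 861, 678 and 679 FPKM in chow-fed WT mice and 1083, 786 and 809 FPKM in fat-fed WT mice. It measured 518, 621 and 509 FPKM in chow-fed KO mice and 628, 684 and 732 FPKM in fat-fed KO mice. On each diet the KO libraries lay below the WT libraries, with a log2 fold change over both diets of -0.40 (SE 0.11, limma adjusted p = 0.0710).

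The general forms of subunits VIa and VIII had a higher mean in KO mice. Cox6a1, the general form of subunit VIa, at chr5:115345652-115348958, measured 79.0, 147 and 91.3 FPKM in chow-fed WT mice and 91.7, 86.1 and 119 FPKM in fat-fed WT mice. It measured 217, 122 and 202 FPKM in chow-fed KO mice and 106, 123 and 117 FPKM in fat-fed KO mice. Its 3 highest values were those of the 3 libraries with B and T cell and brown fat markers. Cox8a, the general form of subunit VIII, at chr19:7215158-7217616, measured 91.8, 142 and 99.97 FPKM in chow-fed WT mice and 104, 96.0 and 119 FPKM in fat-fed WT mice. In KO mice it measured 201, 121 and 178 FPKM when chow-fed and 116, 139 and 116 FPKM when fat-fed. The same 3 libraries held its highest values. The log2 fold change in KO mice over both diets was 0.50 for Cox6a1 (SE 0.18, limma adjusted p = 0.118) and 0.39 for Cox8a (SE 0.14, limma adjusted p = 0.123). Without those 3 libraries it was 0.37 for Cox6a1 and 0.27 for Cox8a (limma adjusted p = 0.374 and 0.391), and the part of other cell types was not tested.

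For subunit VIIa both forms had a lower mean in KO mice. Cox7a2, its general form, had a mean of 282 ± 38.9 FPKM (SD, n = 3) in chow-fed WT mice, 355 ± 75.1 in fat-fed WT mice, 255 ± 33.8 in chow-fed KO mice and 297 ± 15.5 in fat-fed KO mice. Its log2 fold change over both diets was -0.19 (SE 0.11, limma adjusted p = 0.290), closer to 0 than that of Cox7a1, and the difference between the forms was not tested. As a ratio within a library, Cox7a2 was between 20.7% and 27.3% of Cox7a1 in the 6 WT libraries and between 27.7% and 37.0% in the 6 KO libraries, so that the ranges did not overlap. Cox8a was between 5.19% and 10.9% of Cox8b in WT libraries and between 9.59% and 20.5% in KO libraries, and Cox6a1 was between 3.19% and 9.36% of Cox6a2 in WT libraries and between 5.84% and 15.7% in KO libraries. For these the ranges overlapped, with the highest WT ratios in the replicate that holds the B and T cell markers.

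**Figure D3:**
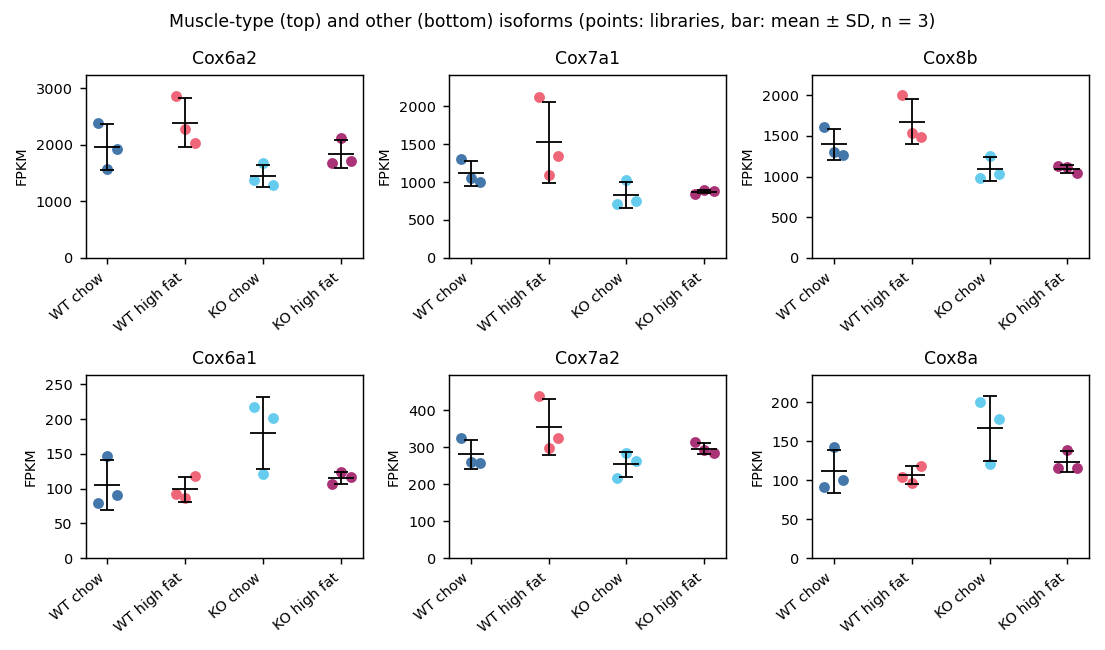
FPKM of the muscle forms Cox6a2, Cox7a1 and Cox8b (top) and of the general forms Cox6a1, Cox7a2 and Cox8a (bottom) by group; points are libraries, and bars are the mean ± SD (n = 3). The Cox8b points of the KO mice, between 977 and 1258 FPKM, all sit below those of the WT mice, and the highest Cox6a1 points, 217 and 202 FPKM, are chow-fed KO mice.

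The promoters of Cox6a1 and Cox8a are shown because they had the highest log2 fold changes in KO mice over both diets among the members. Those of Cox7a1 and Cox8b are shown because they had the lowest. Each window holds 250 bases before and 50 after the annotated start in RefSeq (GRCm38.p6), written 5′ to 3′ on the gene's strand, and capitals mark matches on either strand to the motifs searched. Cox6a1 lies on the minus strand at chr5:115348909-115349208, Cox8a on the minus strand at chr19:7217567-7217866, Cox7a1 on the plus strand at chr7:30183921-30184220 and Cox8b on the minus strand at chr7:140900397-140900696.
Cox6a1: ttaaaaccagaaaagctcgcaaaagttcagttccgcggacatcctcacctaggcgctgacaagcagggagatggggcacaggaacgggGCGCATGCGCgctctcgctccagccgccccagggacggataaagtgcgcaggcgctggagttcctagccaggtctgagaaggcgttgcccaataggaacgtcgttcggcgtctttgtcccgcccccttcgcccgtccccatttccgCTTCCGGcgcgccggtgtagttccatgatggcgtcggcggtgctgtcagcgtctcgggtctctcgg
Cox8a: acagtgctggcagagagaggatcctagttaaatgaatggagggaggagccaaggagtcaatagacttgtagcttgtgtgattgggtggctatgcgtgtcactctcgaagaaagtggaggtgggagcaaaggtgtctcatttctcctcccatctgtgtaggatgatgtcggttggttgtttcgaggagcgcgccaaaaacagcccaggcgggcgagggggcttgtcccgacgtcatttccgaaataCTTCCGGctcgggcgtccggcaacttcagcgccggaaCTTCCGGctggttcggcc
Cox7a1: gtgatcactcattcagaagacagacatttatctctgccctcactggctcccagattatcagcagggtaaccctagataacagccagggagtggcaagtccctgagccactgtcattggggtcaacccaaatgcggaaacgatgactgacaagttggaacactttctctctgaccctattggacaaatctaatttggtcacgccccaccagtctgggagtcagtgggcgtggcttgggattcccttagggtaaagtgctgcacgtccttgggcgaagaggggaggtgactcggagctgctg
Cox8b: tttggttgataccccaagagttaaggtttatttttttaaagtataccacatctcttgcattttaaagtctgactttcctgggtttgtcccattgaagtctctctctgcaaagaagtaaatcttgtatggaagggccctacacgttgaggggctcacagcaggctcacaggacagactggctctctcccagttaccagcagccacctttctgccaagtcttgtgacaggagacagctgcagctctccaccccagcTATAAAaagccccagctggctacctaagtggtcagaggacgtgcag

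In these windows Cox6a1 held the NRF1 motif, whose match overlaps its own reverse complement, and the motif of ETS factors such as GABP. Cox8a held the ETS motif, Cox8b the TATA box, and Cox7a1 none of the 5 motifs searched. The windows of Cox7a2 and Cox6b2 are not shown and also held none of the 5. Cox7a2 is a general form, and Cox6b2 also had a higher mean in KO mice. Across the family, 86 of 86 symbols were matched to RefSeq and 67 subunits had a promoter window. The NRF1 letters GCGCATGCG were in 13.4% of these windows and in 1.81% of the 27025 windows of all genes. The ETS letters CCGGAAG were in 20.9% and 9.12%, the YY1 letters AAGATGGC in 13.4% and 2.88%, the ERR letters AAGGTCA in 10.4% and 4.66%, and the TATA letters TATAAA in 10.4% and 14.2%. Subunit promoters had a median GC content of 57.3% against 52.7% for all promoters. A match is a description of the letters and not of binding.

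Among the remaining pairs the minor form was rare. Cox4i1, the main subunit IV, had a mean of 1196 FPKM and Cox4i2, its lung form, 4.17 FPKM, with log2 fold changes in KO mice of -0.32 (SE 0.12, limma adjusted p = 0.124) and -0.38 (SE 0.13, limma adjusted p = 0.111). Ndufa4, at 1067 FPKM, and the hypoxia-inducible Ndufa4l2, at 10.3 FPKM, had log2 fold changes of -0.29 and -0.40, with standard errors of 0.10 and 0.12. Cox6b1, at 1033 FPKM, had -0.30 (SE 0.11), while its testis form Cox6b2 stayed at 1.87 FPKM or less in every library with 0.21 (SE 0.15), a value that went to 0 without the 3 libraries with B and T cell markers. Cox7b, at 347 FPKM, had -0.32 (SE 0.10, limma adjusted p = 0.0840). The 3 genes that encode the same mature c subunit of the ATP synthase rotor had -0.38 for Atp5g1 (SE 0.14), -0.24 for Atp5g2 (SE 0.10) and -0.30 for Atp5g3 (SE 0.12), at means of 903, 610 and 1334 FPKM.

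**Figure D4:**
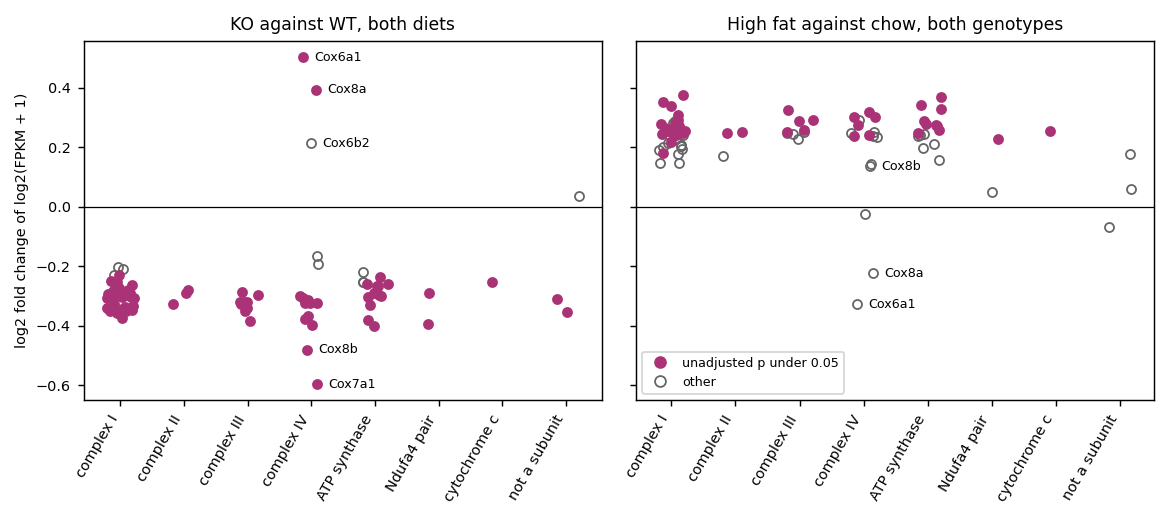
Log2 fold change on the log2(FPKM + 1) scale of each tested member (points) by complex, for KO against WT over both diets (left) and high fat diet against normal chow over both genotypes (right); filled points have an unadjusted p under 0.05 by limma. On the left 80 of 84 points lie below 0, with Cox6a1 (0.50) and Cox8a (0.39) above, and on the right 80 of 84 lie above 0.

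Split by diet, the genotype difference had the same direction. On normal chow 80 of 84 members had a lower mean in KO mice (55% of all genes tested), with a median log2 fold change of -0.25 against -0.03 over all genes. By limma no member passed an adjusted p of 0.05, as 0.0586% of all genes did, and at an unadjusted p under 0.05 there were 7 lower and 3 higher, against 9.93% and 6.73% of all genes. In 23 members the KO libraries lay wholly below the WT libraries, as for 10.2% of all genes. The 4 lowest by the rule were Atp5j (-0.42, SE 0.15), Cox6a2 (-0.42, SE 0.18), Ndufa12 (-0.38, SE 0.16), an accessory subunit of complex I, and Cox8b (-0.36, SE 0.15). Those higher were Cox6a1 (0.77, SE 0.25), Cox8a (0.57, SE 0.20) and Cox6b2 (0.50, SE 0.21). The limma adjusted p of these 7 lay between 0.277 and 0.290. Without the 3 libraries with B and T cell markers, which leaves 1 KO library and assumes that it varies like the others, the median was -0.12, and it was also -0.12 after quantile normalization with all libraries. Of the libraries left out singly, replicate 1 of the fat-fed WT mice, which enters through the shared variance alone, took the 7 lower members to 38, and replicate 2 of the chow-fed KO mice took them to 27. Replicate 1 of the chow-fed WT mice and replicate 3 of the chow-fed KO mice took them to 0, and replicate 1 of the chow-fed KO mice to 1. In the same order, 11.4%, 16.5%, 2.60%, 3.80% and 4.10% of all genes were lower at an unadjusted p under 0.05.

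On high fat diet 81 of 84 members had a lower mean in KO mice (52.9% of all genes tested), and the median log2 fold change was -0.35 against -0.01 over all genes. By limma none passed an adjusted p of 0.05, as 0.109% of all genes did, and at an unadjusted p under 0.05 there were 41 lower and 0 higher, against 6.45% and 9.79% of all genes. In 67 members the KO libraries lay wholly below the WT libraries, as for 10.7% of all genes. The lowest were Cox7a1, with a log2 fold change of -0.74 (SE 0.22, limma adjusted p = 0.145), and Cox8b, with -0.60 (SE 0.15, limma adjusted p = 0.0929). Next were Ndufa4l2, with -0.51 (SE 0.17), and Uqcrq, with -0.50 (SE 0.18). Uqcrq, a small subunit of complex III, measured 1320, 804 and 859 FPKM in WT mice and 698, 692 and 670 FPKM in KO mice, and the lowest WT value was above the highest KO value. After quantile normalization the median was -0.20. Without replicate 1 of the WT mice the median was -0.17. In that fit 4 members were lower at an unadjusted p under 0.05 instead of 41, against 3.93% of all genes. Without replicate 2 of the WT mice there were 64, against 7.03% of all genes. Without replicates 1, 2 or 3 of the KO mice there were 10, 21 and 21, against 5.14%, 4.95% and 6.64% of all genes.

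The effect of high fat diet was compared over both genotypes. Of the 84 members, 80 had a higher mean on high fat diet (52.6% of all genes tested), with a median log2 fold change of 0.25 against 0.01 over all genes. By limma none passed an adjusted p of 0.05, as 0.0586% of all genes did, and at an unadjusted p under 0.05 there were 42 higher and 0 lower, against 7.96% and 5.94% of all genes. These were 18 of complex I, 2 of complex II, 5 of complex III, 6 of complex IV, 9 of ATP synthase, Ndufa4 and Cycs. The highest were Ndufa13 (0.38, SE 0.10, limma adjusted p = 0.194), an accessory subunit of complex I, Atp5h (0.37, SE 0.13), the d subunit in the stator of ATP synthase, Ndufb3 (0.35, SE 0.10), of the membrane arm of complex I, and Atp5k (0.34, SE 0.10), the e subunit. The 3 members below 0 in complex IV were Cox6a1, Cox8a and Cox4i2. Without the 3 libraries with B and T cell markers, all from mice on normal chow, the median was 0.12. That fit leaves 1 chow-fed KO library, assumed to vary like the others, so its count is not set beside the 42. After quantile normalization the median was 0.07. In that fit 7 members were higher at an unadjusted p under 0.05, against 890 of the 11945 genes tested. The 42 members became between 11 and 27 without any of 8 single libraries, namely replicates 2 and 3 of the chow-fed WT mice, replicate 1 of the fat-fed WT mice, replicates 1 and 3 of the chow-fed KO mice and each fat-fed KO mouse. In these fits between 634 and 987 of the 11945 genes tested were higher at that level.

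In WT mice the median log2 fold change with high fat diet was 0.29 against -0.01 over all genes, and 80 of 84 members were higher (46.4% of all genes tested). By limma none passed an adjusted p of 0.05, as 0.1% of all genes did, and 14 were higher at an unadjusted p under 0.05, against 4.42% of all genes, and 0 lower, against 3.7%. The highest were Cox6b2 (0.58, SE 0.21), Atp5h (0.49, SE 0.18), Ndufa13 (0.45, SE 0.15) and Ndufb3 (0.45, SE 0.14), with limma adjusted p between 0.312 and 0.441. Ndufa13 measured 264, 207 and 235 FPKM when chow-fed and 397, 282 and 297 FPKM when fat-fed. Ndufb3 measured 251, 210 and 201 FPKM and then 354, 280 and 272 FPKM. For both, each mouse on high fat diet was above each on normal chow, as for 6 members and for 6.2% of all genes. After quantile normalization the median was 0.10. Without replicate 1 of the fat-fed WT mice the median was 0.12 and 2 members were higher at that level, as without replicate 2 of the chow-fed ones, and there were 5 without replicate 3 of the latter. Without replicate 1 of the chow-fed or replicate 2 or 3 of the fat-fed WT mice there were 46, 47 and 23, and 9 without replicate 3 of the chow-fed KO mice or any fat-fed KO mouse. Over these fits with a library left out, between 420 and 636 of the 11945 genes tested were higher at that level.

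In KO mice 79 of 84 members were higher on high fat diet (56% of all genes tested), with a median log2 fold change of 0.20 against 0.03 over all genes. After quantile normalization 52 were higher, and the median was 0.02 against 0.03 over all genes. By limma none passed an adjusted p of 0.05, nor did any gene (0%), and 1 member was higher and 1 lower at an unadjusted p under 0.05, against 6.56% and 4.73% of all genes. The member higher was Atp5o, the subunit that makes ATP synthase sensitive to oligomycin, with a log2 fold change of 0.34 (SE 0.15, limma adjusted p = 0.441). It measured 628, 719 and 641 FPKM when chow-fed and 812, 835 and 859 FPKM when fat-fed. In 22 members the high fat libraries lay wholly above, against 10.7% of all genes. The member lower was Cox6a1, with -0.60 (SE 0.25, limma adjusted p = 0.440). Without replicates 1 and 3 on normal chow, which hold the B and T cell markers, and replicate 2 of the chow-fed WT mice, the median was 0.0083 against 0.0126 over all genes, and the lone KO library left on normal chow is assumed to vary like the others. Without replicate 2 of the chow-fed KO mice 15 members were higher at an unadjusted p under 0.05, and 13 without replicate 1 of the fat-fed WT mice. In these fits 1369 and 924 of the 11945 genes tested were higher at that level.

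The comparisons share libraries, since each group enters both a comparison of diet and a comparison of genotype. Whether diet acted differently in KO than in WT mice was tested by the interaction. By limma no member passed an adjusted p of 0.05 and no gene did (0%), and 0 members had an unadjusted p under 0.05, against 3.55% of all genes with a positive and 2.7% with a negative interaction. Of the 84 members, 73 had a negative interaction, against 44.6% of all genes tested. The median interaction of the members was -0.11 on the log2 scale, against 0.03 over all genes. It ran from -0.21 to 0.07 when single libraries were left out. Without replicate 1 of the fat-fed WT mice, 62 members had a positive interaction.

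Assembly factors, which build the complexes but are no part of them, had medians nearer to 0. Of 43 assembly factors in a list from general knowledge, 27 were in the files and all 27 were tested. In KO mice over both diets 26 of the 27 had a lower mean (55.6% of all genes tested), with a median log2 fold change of -0.16. None passed an adjusted p of 0.05 by limma (0.862% of all genes), and 9 were lower and 0 higher at an unadjusted p under 0.05, against 13.4% and 13.1% of all genes. On high fat diet over both genotypes 25 were higher (52.6% of all genes), with a median of 0.13, none passed (0.0586% of all genes), and 6 were higher and 0 lower at that level, against 7.96% and 5.94% of all genes. Ndufaf4, an assembly factor of complex I, had a log2 fold change in KO mice of -0.37 (SE 0.09, limma adjusted p = 0.0661). Of 14 genes listed as regulators and carriers, all 14 were tested and none passed in either comparison by limma. These 14 include Ndufab1, a complex I subunit that the symbol rule does not match, and the enzyme gene Cs. In KO mice 12 had a lower mean (55.6% of all genes), with a median of -0.18, and 6 were lower and 1 higher at an unadjusted p under 0.05, against 13.4% and 13.1% of all genes. The gene higher was Ucp2, an uncoupling protein also made by macrophages, with 1.13 (SE 0.26, limma adjusted p = 0.0593), beside macrophage markers that summed to between 26.5 and 101 FPKM in WT libraries and between 95.4 and 207 FPKM in KO libraries. On high fat diet 11 were higher (52.6% of all genes), with a median of 0.22, and 3 were higher and 0 lower at that level, against 7.96% and 5.94% of all genes.

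Among the 8 muscle markers, Mb and Myh1 were highest in the library where the members were. Mb, which encodes the oxygen store myoglobin, measured 3186, 2683 and 2197 FPKM in chow-fed WT mice and 6173, 3562 and 3894 FPKM in fat-fed WT mice. It measured 1552, 2245 and 2398 FPKM in chow-fed KO mice and 2135, 2858 and 2083 FPKM in fat-fed KO mice. The lowest library of Mb, replicate 1 of the chow-fed KO mice, was also that of most members. Myh1, the myosin of fast IIx fibres, was also highest in replicate 1 of the fat-fed WT mice, at 1393 FPKM. It lay between 397 and 828 FPKM in the other 11, with its lowest value in replicate 3 of the fat-fed KO mice. Acta1 and Casq1 were highest in that WT library as well, with 35165 and 1626 FPKM, but Ckm and Tnnt3 were highest in replicate 1 of the chow-fed WT mice, with 25896 and 16793 FPKM, and Des in replicate 2 of the fat-fed KO mice, with 3062 FPKM. Ckm and Tnnt3 were lowest in replicates 3 and 1 of the chow-fed KO mice, with 13276 and 15178 FPKM for Ckm and 9588 and 10782 FPKM for Tnnt3. The fast glycolytic genes, with Myh4 at 0, summed to between 43301 and 56526 FPKM in the libraries with B and T cell markers. They summed to between 61568 and 78636 FPKM in the others. Myh2, listed with Myh1 as fast oxidative, was second lowest in replicate 1 of the fat-fed WT mice, with 204 FPKM. Elsewhere it lay between 199 and 504 FPKM. The log2 fold change in KO mice over both diets was -0.65 for Mb (SE 0.17, limma adjusted p = 0.0700) and -0.55 for Myh1 (SE 0.17, limma adjusted p = 0.0934). Slow fibre genes were low there too, and replicate 1 of the fat-fed WT mice held the lowest Myh7, at 3.20 FPKM, against between 16.9 and 138 FPKM elsewhere. The part of fibre type makeup in the member differences was not tested.

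**Figure D5:**
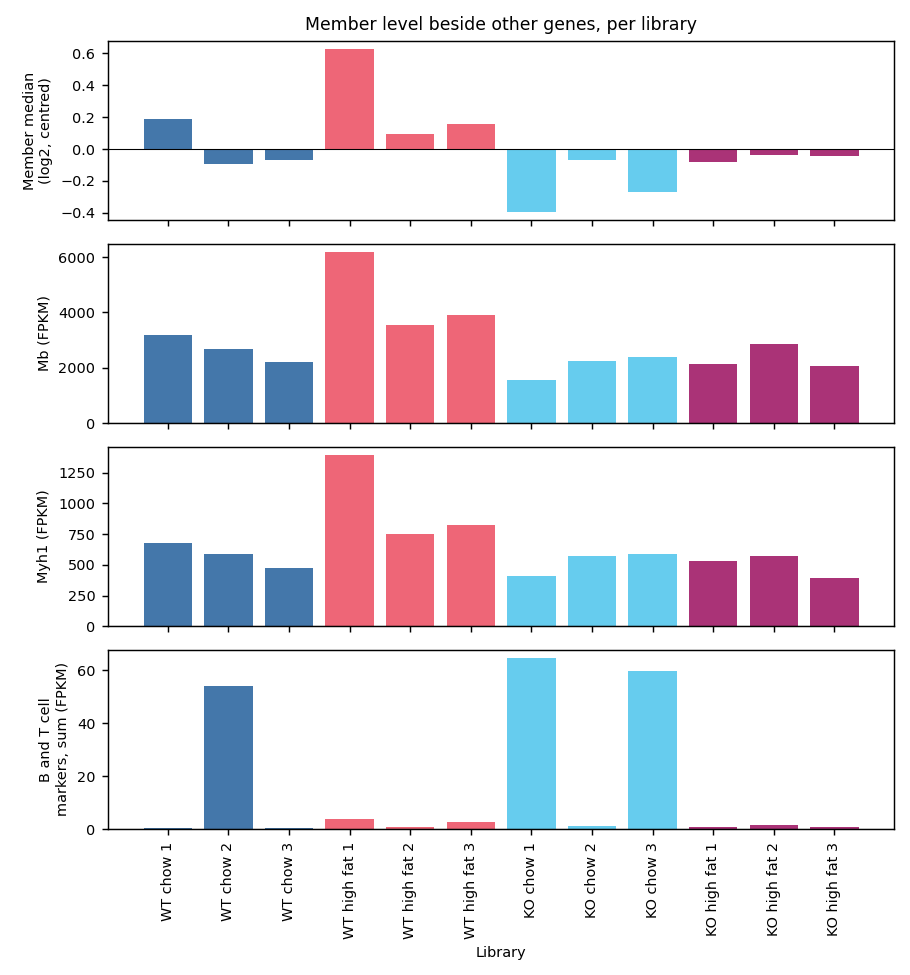
Bars give, for each library, the median centred log2(FPKM + 1) of the 84 members, the FPKM of Mb and of Myh1, and the summed FPKM of 5 B and T cell markers, coloured by group. The tallest member, Mb and Myh1 bars (0.63, 6173 and 1393 FPKM) are those of replicate 1 of the fat-fed WT mice, and the B and T cell bars stand up in 3 libraries on normal chow, with between 54.1 and 64.5 FPKM.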

How the data were processed

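Muscle RNA of 12 mice was sequenced. The authors deposited 1 FPKM value per gene symbol and library, without pooling replicates. The unit was read from the values. TopHat2 2.0.8b, Cuffdiff 2.1.1 and build mm10 are named in the submitters' processing notes with no role, and the annotation, strand setting and treatment of reads shared with pseudogenes or paralogues are not given in the sources used here. The study's methods state 3 independent samples per genotype and a two-tailed test at 0.05 with no model.

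Genes with at least 1 FPKM in at least 3 samples were taken to log2(FPKM + 1) and fitted in R 4.3.3 by limma 3.58.1, using 4 group means, 8 residual degrees of freedom and a variance trend on intensity. Two-sided p-values were adjusted over all genes tested by Benjamini-Hochberg at 0.05, and they measure the spread between these samples. Other values came from Python 3.11.15, NumPy 2.4.6, pandas 2.3.3 and SciPy 1.17.1, and plots from matplotlib 3.10.9. Fold changes on the log2(FPKM + 1) scale understate those of low genes.

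The members and lists were chosen with earlier results of these data known. Named members were, in each comparison, those past the threshold, the up to 4 highest and 4 lowest at an unadjusted p under 0.05, the isoform pairs, and the highest and lowest of each complex. Simulated data for the genotype comparison on high fat diet were run on 11945 genes. There limma called 99 of 100 genes changed by 1 on the log2 scale and 100 of 100 changed by 2. It also called 13 of 11745 unchanged genes. Changes smaller than 1 were not simulated, and the log2 fold changes of the 84 members in that comparison lay between -0.74 and 0.23. How often limma would call differences of the members' size was therefore not tested. Alternatives were a pseudocount of 0.1 FPKM, other filters and scalings, robust moderation, the ratio of group means, fits of just the groups compared, genotype by label, a replicate block and each sample left out. The 2 sets of libraries left out together were chosen after seeing the data. A further B and T cell marker is not reported here.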

Additional observations from a re-analysis of the deposited data

How the results depend on the processing

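Depth in reads is unknown, and with 3 mice a group limma called no member in any comparison. That count of 0 held under each alternative run, except for the genotype difference over both diets, where 1 member, Cox8b, was called after quantile normalization and the count ran from 0 to 16 over the fits that leave out a sample. It was 1, again Cox8b, without replicate 2 of the chow-fed WT mice or replicate 3 of the fat-fed WT mice, where 2.81% and 4.11% of all genes passed. It was 16 without replicate 2 of the chow-fed KO mice, where 10.1% of all genes passed. After quantile normalization 1.67% of all genes passed, and in the main fit 0.862%. With a sample left out, the median log2 fold change of the members ran from -0.35 to -0.21 for genotype over both diets, -0.34 to -0.16 for genotype on normal chow, -0.44 to -0.17 for genotype on high fat diet, 0.16 to 0.30 for diet over both genotypes, 0.12 to 0.39 for diet in WT mice, 0.12 to 0.29 for diet in KO mice and -0.21 to 0.07 for the interaction, the only one to cross 0.

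Under quantile normalization every median lay nearer to 0: 0.10 for diet in WT mice, 0.02 for diet in KO mice with 52 of 84 members higher instead of 79, 0.07 for diet over both genotypes, -0.16 for genotype over both diets, -0.12 for genotype on normal chow, -0.20 for genotype on high fat diet and -0.09 for the interaction. Without the 3 libraries with B and T cell markers the median for diet in KO mice was 0.0083, and Cox6b2 over both diets was -4.29e-06. With genotype taken from the label that conflicts with the titles in 6 samples, the median was 0.011 for diet in WT mice, 0.44 for diet in KO mice, 0.27 for genotype on high fat diet, 0.052 for genotype over both diets and 0.44 for the interaction. Under that grouping the log2 fold change on high fat diet was 0.57 for Cox7a1, 0.40 for Cox8b, 0.35 for Ndufa4l2 and 0.35 for Uqcrq. Over both diets it was 0.0069 for Atp5g2, 0.018 for Atp5g3, 0.061 for Atp5j, 0.11 for Cox4i1, 0.035 for Cox4i2, 0.0085 for Cox6a2, 0.16 for Cox7a1, 0.060 for Cox7b, 0.090 for Cox8b, 0.059 for Ndufa4 and 0.11 for Ndufa4l2. This grouping mixes libraries with and without Cryab, and the cause was not tested for the other alternatives.

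The replicate numbers come from the titles. Same-numbered samples had correlations of their deviations between -0.81 and 0.39 over the genes tested. Samples with different numbers were not compared in this way, so whether the numbers pair the mice was not settled. With the replicate number as a block no member was called, and 68 members were lower in KO mice over both diets at an unadjusted p under 0.05 instead of 72, 31 instead of 41 on high fat diet, and 27 instead of 42 higher on high fat diet over both genotypes. In the same order, 11.0% and 5.18% of all genes were lower at that level, and 744 of the 11945 genes tested were higher.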
